A study of Homo sapiens with 12 samples.

Results

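HCT116 cells that overexpress the long non-coding RNA SLERT were compared with HCT116 cells carrying an empty vector, 3 RNA-seq libraries in each arm and 6 of the 12 libraries of the series. HCT116 is an established human colorectal cancer line. The treatment label of one arm reads control and that of the other SLERT overexpression (OE), and the control columns are headed as vector, which is the only link between those columns and the HCT116 control. No promoter, vector backbone, clone, time or dose is given for either arm, and nothing in the labels says whether its libraries came from separate cultures. The p-values therefore measure the spread between these libraries, which may be technical. Every gene that passed a count filter within these libraries was kept, which left 15980 of 62656 genes. The series asks how SLERT acts in liver metastasis of colorectal cancer, and its title places the kinase gene HUNK and the m6A factor RBM15 in that setting. The comparison described here asks which RNAs differ in abundance when SLERT is raised in a single line.

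As background, SLERT belongs to the RNAs that are capped at both ends by small nucleolar RNAs. It is processed from an intron region of TBRG4, keeps the box H/ACA snoRNAs SNORA5A and SNORA5C as its ends, and is carried by them to the nucleolus. There it is known to bind the helicase DDX21 and to favour transcription of ribosomal DNA by RNA polymerase I. Box H/ACA snoRNAs fold into hairpins followed by a hinge and a terminal ACA, and the ends of such RNAs are protected by dyskerin and its partner proteins.

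The 2 snoRNA ends are shown because their reads stand for SLERT in these data. Such gene counts do not separate the ends of SLERT from the same snoRNAs on their own. They are written as RNA genes of GRCh38 on the minus strand of chromosome 7, chr7:45104349-45104482 for SNORA5A and chr7:45104906-45105042 for SNORA5C, with the terminal ACA box in capitals.
SNORA5A: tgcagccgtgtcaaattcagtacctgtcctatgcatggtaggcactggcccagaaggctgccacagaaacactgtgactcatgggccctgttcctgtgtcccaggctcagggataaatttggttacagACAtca
SNORA5C: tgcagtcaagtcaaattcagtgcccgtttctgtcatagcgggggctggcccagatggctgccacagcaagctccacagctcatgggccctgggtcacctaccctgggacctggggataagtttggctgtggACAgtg
SNORA5A is 134 bases long and SNORA5C 137, and each has 3 bases after the ACA. Aligned over their whole length they were identical at 99 of 145 aligned columns (68.3%). The longest identical run within that alignment was 12 bases, and longer shared stretches outside it were not searched for. The pair can therefore be told apart in sequence.

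The overexpression was visible at both ends and in the host gene. SNORA5C had 4, 4 and 8 counts in the control libraries and 551, 661 and 714 in the OE libraries, which is 0.231, 0.233 and 0.496 depth-normalised counts (CPM, scaled to 1e+06) against 33.8, 40.3 and 47.4 CPM. The ratio of the pooled counts at equal depth was 127.6, with an exact Poisson interval at 95% from 78.4 to 223.7 that covers counting error only. SNORA5A had 0 counts in each control library and 39, 46 and 57 in the OE libraries. The ratio was 50.2 when the control group is set to a floor of 3 counts over the group. Its exact interval at 95% began at 40.3 and had no upper end. Divided by length, SNORA5C stood at 245 to 341 FPKM (fragments per kilobase of gene length and scaled to library depth) and SNORA5A at 17.8 to 27.8 FPKM in the OE libraries, so the ends were read unequally. TBRG4, a mitochondrial RNA-binding protein of the FASTK family and the host of both snoRNAs, lay at 159, 153 and 173 CPM in the controls and at 244, 252 and 271 CPM with OE. It rose 1.58-fold (log2 fold change 0.66, standard error (SE) 0.0581, edgeR adjusted p = 5.24e-08). No library of one arm overlapped the other arm at any of the 3 genes, and OE 1 was the lowest and OE 3 the highest of the OE libraries at each. Gene counts do not separate RNA of the construct from RNA of the chromosomal TBRG4, and these can therefore not be told apart. SNORA5B, the third snoRNA of the locus, was not read in any library, and a count of 0 leaves room for 3 counts.

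**Figure D1:**
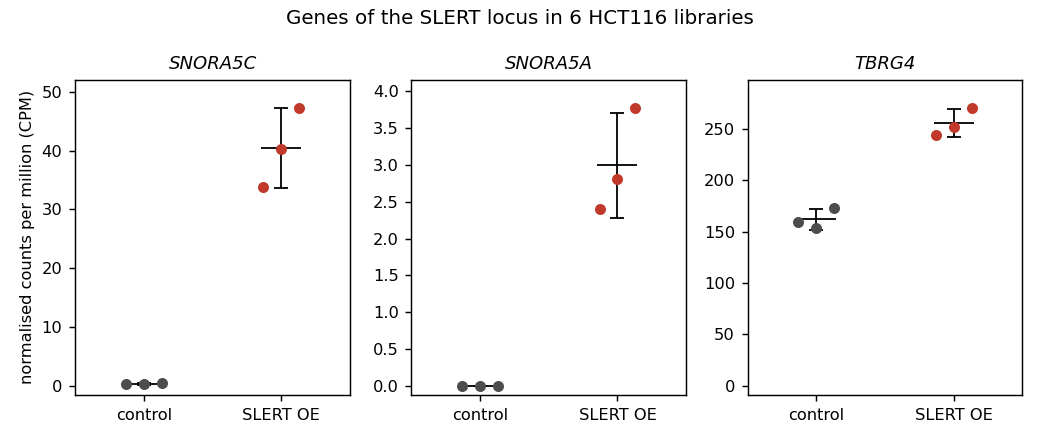
Normalised CPM of SNORA5C, SNORA5A and TBRG4 in each of the 3 control (grey) and 3 SLERT OE (red) libraries, with the mean and SD of each arm as bars and a linear axis for each gene. The OE libraries lie above every control library in all 3 panels, and TBRG4 is the gene of the 3 with a high level already in the controls.

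The genes beside TBRG4 on chromosome 7 held no call. Of 15 genes chosen on either side, 12 were tested and 0 were called by edgeR, with a median log2 fold change of 0.03. Over all genes tested the share called was 0.914%, so 0 of 12 does not set these neighbours apart. At an unadjusted p under 0.05 there was 1, against 2298 of 15980 over all genes tested, and DESeq2 called 0. Arms that did not overlap were held by 19.1% of all genes tested. CCM2, which encodes a scaffold protein of endothelial and vascular signalling, was the only member whose arms did not overlap, at 47.9, 49.5 and 49.0 CPM in the controls and 51.0, 54.4 and 53.2 CPM with OE (log2 fold change 0.12, adjusted p = 0.456). PPIA, the gene of cyclophilin A, stood at 0.17 on the log2 scale (adjusted p = 0.166) with overlapping arms. Leaving out control 3 gave 1 call among these neighbours, and leaving out any other library gave 0. H2AZ2 (0.07), DDX56 (0.03), SNHG15 (0.12), OGDH (0.02), PURB (0.03), NUDCD3 (-0.02), TMED4 (-0.07) and ZMIZ2 (-0.09) lay close to 0 on the log2 scale. NPC1L1 (0.16) and MYO1G (-0.68) had levels near 1 CPM or below, NACAD and ADCY1 were too low to be tested, and RAMP3 was not read.

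In all, 146 of the 15980 genes were called (edgeR quasi-likelihood test, Benjamini-Hochberg adjusted p below 0.05), a share of 0.914%. Of these, 81 rose with OE (0.507% of genes tested) and 65 fell (0.407%). With upper quartile factors in place of TMM the higher calls were 41.8% of 141, against 55.5% of 146, so the balance of rises and falls depends on the scaling. All 146 had arms that did not overlap, which held for 19.1% of all genes tested, 1527 higher and 1531 lower with OE. An unadjusted p under 0.05 in the edgeR test was held by 2298 of the 15980. The changes were small. Only 3 genes changed 2-fold or more and 11 changed over 1.5-fold. The 3 were SNORA5A, SNORA5C and a fall not named here, which lacked a gene symbol or lay at a low level. The median rise was 1.22-fold and the median fall 1.29-fold, and outside the SLERT locus the largest called rise was 1.40-fold. Of the rises 78 were protein coding genes and of the falls 61. Over all genes tested the median log2 fold change was -0.002, and the 5th and 95th percentiles were -0.44 and 0.29.

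The libraries themselves were alike in depth, and their cell identity was read from marker genes. Totals ran from 16.11 to 17.23 M counts in the controls and from 15.30 to 16.54 M with OE, and log2 CPM correlated at 0.990 to 0.992 within an arm and at up to 0.990 between arms. The first principal component held 26.7% of the variance and separated the arms. At the depth of the shallowest library the controls would have shown 26126 to 26344 genes and the OE libraries 25568 to 25896. Among colorectal epithelial markers, EPCAM, KRT8, KRT18, KRT19 and CDX2 were read in every library. The 8 markers tested held 0 calls by edgeR or DESeq2, where edgeR called 0.914% of all genes tested. At an unadjusted p under 0.05 there were 3 of the 8, against 2298 of 15980 over all genes tested. The markers had summed levels of 4526 to 4653 CPM in the controls and 4630 to 4960 CPM with OE. CDX1 was at 0 and CEACAM5, VIL1, GPA33 and LGALS4 were under 1 CPM, so the line showed a partial set of intestinal markers. CDH1 (-0.17) and KRT20 (-0.75, at 0.737 to 1.97 CPM) were not called. The extraction protocol speaks of retinas, but 17 of 20 retina markers were under 1 CPM in the 6 libraries. Their sum was 16.1 to 20.9 CPM in the controls and 17.0 to 18.2 CPM with OE, with OPN1LW and OTX2 at 0. Leukocyte markers summed to 11.5 to 13.7 and 8.96 to 12.3 CPM (CD68 and FCGR3A at 0). Fibroblast and endothelial markers summed to 79.6 to 87.1 and 72.6 to 78.3 CPM, with DCN and FAP at 0 and COL1A1 the member of smallest p. These did not overlap between the arms, and neither did the hepatocyte sums of 9.71 to 11.1 and 8.53 to 9.22 CPM (APOB, TTR and FGA at 0). The part of these levels in the results below was not tested.

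**Figure D2:**
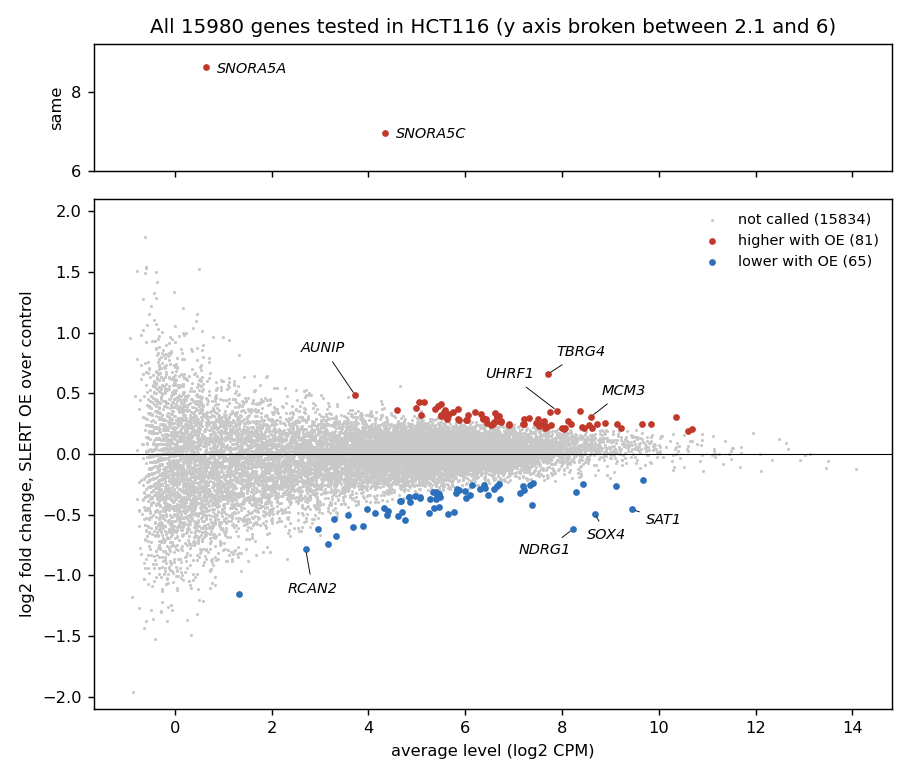
Log2 fold change of SLERT OE over control against the average log2 CPM of each of the 15980 genes tested in the 6 HCT116 libraries, with 81 called rises in red, 65 called falls in blue and genes not called in grey. The vertical axis is broken, and apart from SNORA5C and SNORA5A the called genes lie close to the edges of the grey cloud.

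The rises outside the locus were led by genes of DNA replication. Replication starts when the origin recognition complex, CDC6 and CDT1 load the MCM helicase on DNA before S phase, after which CDC45, the GINS complex and the polymerases turn it into a moving fork. E2F factors switch many of these genes on as cells leave G1. In the list of origin licensing and firing genes, 9 of 27 tested members rose, 0 fell and 26 were positive, the median log2 fold change being 0.24. Over all genes tested, 7902 of 15980 were positive. In the list of replication fork and polymerase genes, 6 of 32 rose, 0 fell and all 32 were positive, with a median of 0.19. DESeq2 called 13 licensing and 10 fork genes higher and 0 of either lower.

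The MCM helicase was represented most fully. MCM4 was at 288, 289.5 and 292 CPM in the controls and at 369.7, 373 and 369 CPM with OE, so the arms were far apart and each was narrow. It rose 1.28-fold (SE of log2 0.0502, adjusted p = 2.78e-04). MCM5 went from 187, 187 and 193 CPM to 241, 225 and 255 CPM (0.35 on the log2 scale, SE 0.0554, adjusted p = 0.00152). MCM3, at chr6:52264009-52284881 on GRCh38, went from 351, 341 and 346 CPM to 424, 418 and 441 CPM (0.31, SE 0.0506, adjusted p = 0.00197). These 3 helicase subunits were called whichever of the 6 libraries was left out. MCM2 (0.26) and MCM7 (0.22) of the same ring rose by less, whereas MCM6 had a log2 fold change of 0.18 and did not pass the test. The other licensing genes that rose were ORC1, the largest subunit of the origin recognition complex (0.36), CDC6, the loader (0.29), MCM10, a fork assembly factor (0.28), and GINS2 of the GINS complex (0.30). ORC1 stood at 44.7, 41.5 and 39.2 CPM and at 54.4, 54.3 and 52.9 CPM, and CDC6 at 128, 138 and 133 CPM and at 158, 168 and 159.7 CPM, with a gap between the arms in each. MCM2, MCM7, MCM10 and GINS2 lie outside the rule for naming and are given to complete the count. With control 1, 2 or 3 left out there were 5, 4 and 8 licensing genes past the edgeR threshold, and with OE 1, 2 or 3 left out 7, 3 and 5, not all of them among the 9. ORC1 lost the call without control 2 (0.36) and OE 2 (0.36), and CDC6 without control 1 (0.26) and OE 2 (0.26).

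At the fork, PCNA, the sliding clamp of the polymerases, rose from 249, 253 and 259 CPM to 295, 316 and 306 CPM (0.27 on the log2 scale, SE 0.0522, edgeR adjusted p = 0.00997). CLSPN, a mediator between the fork and the checkpoint kinase, was at 69.2, 70.1 and 74.0 CPM in the controls and at 94.8, 92.7 and 80.6 CPM with OE. Its OE libraries were uneven, with OE 3 nearest to the controls. CHAF1A (0.31) and ASF1B (0.27), which place new histones behind the fork, FEN1, the flap nuclease of the lagging strand (0.25), and RPA1, of the single-strand binding complex (0.21, outside the rule for naming), rose too. RNASEH2A, a subunit of the nuclease that removes RNA from DNA, had the highest estimate of the list (0.68). It was under 1 CPM in every library and did not pass the test. The number of fork genes called was 0 with control 1 or control 2 left out and 7 with control 3 left out. It was 3 with OE 1 left out and 1 with OE 2 or OE 3 left out, and the log2 fold change of PCNA over those fits was 0.25 to 0.29.

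The promoters of 4 called rises, those of smallest p among the rises that hold E2F-type letters, are shown because many replication genes share these letters. UHRF1 acts in the copying of DNA methylation and the other 3 are described above. They come from RefSeq on GRCh38.p14 and run from 250 bases before to 50 bases after the start of the gene. The positions are chr19:4909251-4909550 for UHRF1 (plus strand), chr6:52284693-52284992 for MCM3 (minus), chr20:5126573-5126872 for PCNA (minus) and chr17:40287629-40287928 for CDC6 (plus). Capitals mark an exact match on either strand to TTTCCCGC, TTTCGCGC, TTTGGCGC or TTTGCCGC.
UHRF1: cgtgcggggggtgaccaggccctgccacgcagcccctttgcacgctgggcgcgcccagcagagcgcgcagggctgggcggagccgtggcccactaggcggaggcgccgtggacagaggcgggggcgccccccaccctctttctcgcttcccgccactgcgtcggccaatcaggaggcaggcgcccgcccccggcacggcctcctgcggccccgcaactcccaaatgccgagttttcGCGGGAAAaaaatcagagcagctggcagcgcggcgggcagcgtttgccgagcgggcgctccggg
MCM3: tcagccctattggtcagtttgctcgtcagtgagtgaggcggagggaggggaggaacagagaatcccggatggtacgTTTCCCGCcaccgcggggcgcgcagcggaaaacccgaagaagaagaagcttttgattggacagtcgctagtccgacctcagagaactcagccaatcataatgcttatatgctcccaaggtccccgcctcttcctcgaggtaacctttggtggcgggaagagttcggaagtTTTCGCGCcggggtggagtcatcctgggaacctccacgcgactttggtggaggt
PCNA: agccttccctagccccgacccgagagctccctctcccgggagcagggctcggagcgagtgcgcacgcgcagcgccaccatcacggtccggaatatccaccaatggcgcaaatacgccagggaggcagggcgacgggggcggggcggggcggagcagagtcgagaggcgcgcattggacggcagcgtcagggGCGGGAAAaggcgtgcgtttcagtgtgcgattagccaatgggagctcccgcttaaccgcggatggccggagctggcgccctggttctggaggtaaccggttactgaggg
CDC6: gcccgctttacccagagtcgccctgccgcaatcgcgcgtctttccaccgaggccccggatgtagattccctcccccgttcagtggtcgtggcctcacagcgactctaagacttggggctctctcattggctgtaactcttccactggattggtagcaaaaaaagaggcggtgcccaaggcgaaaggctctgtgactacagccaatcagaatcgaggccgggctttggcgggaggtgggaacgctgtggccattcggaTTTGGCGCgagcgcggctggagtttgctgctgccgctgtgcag
The matches begin at -14 from the start in UHRF1, at -174 and -4 in MCM3, at -59 in PCNA and at 8 in CDC6. Such a match was present in 3.33% of 27305 RefSeq promoters of this length and in 5.19% of the 11285 promoters of genes tested. It was present in 15 of the 66 promoters matched to called rises (22.7%) and in 2 of the 51 matched to called falls (3.92%). Among promoters of licensing and fork genes it was present in 7 of 13 whose gene was called and in 12 of 36 whose gene was not. The letters CCAAT, searched on both strands, were in 57.6% of promoters of rises, 33.3% of falls and 36.6% of genes tested. The E-box CACGTG was in 19.7%, 9.80% and 9.95% in the same order. The cyclic AMP element TGACGTCA was in 6.06%, 1.96% and 3.16%, and the AP-1 letters TGACTCA were in 3.03%, 5.88% and 3.17%. These shares describe letters in a window and were not tested, and genes chosen as rises differ from other genes in level as well.

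UHRF1, which reads hemimethylated DNA behind the fork and recruits the maintenance methyltransferase, was at 209.8, 218 and 201 CPM in the controls and at 283, 254 and 267 CPM with OE. It rose 1.28-fold (0.36 on the log2 scale, SE 0.0554, edgeR adjusted p = 0.00127) and was called without each of the 6 libraries. It was the only call among 8 tested genes of DNA methylation. DNMT1, its partner enzyme, had a log2 fold change of 0.13, DNMT3A -0.03, DNMT3B 0.03 and TET2 -0.30, none of them past the test. WDR76, a nuclear WD-repeat protein, rose from 38.8, 40.2 and 37.9 CPM to 52.0, 54.3 and 49.5 CPM (0.41, SE 0.0721, adjusted p = 0.00339), with no overlap of the arms. The largest rises by the naming rule that stood in no list were, beside WDR76, ARPC4, a subunit of the actin-nucleating Arp2/3 complex (0.38, adjusted p = 0.0330), SNRNP25, of the minor spliceosome (0.37), and EMC8, of the membrane protein insertion complex of the endoplasmic reticulum (0.35). EMC8 lost its call without control 2, OE 2 or OE 3, ARPC4 also without control 1, and SNRNP25 in every fit that left out a library.

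Genes for the supply and repair of DNA held 6 calls, all of them rises. Of 24 tested genes of nucleotide synthesis 3 rose, 0 fell and 23 were positive (median 0.16). The rises were those of RRM2, the S-phase subunit of ribonucleotide reductase, from 343, 349 and 346 to 403, 421 and 403 CPM (log2 fold change 0.24), of TK1, the thymidine kinase of cycling cells (0.25), and of UMPS, which makes uridine monophosphate (0.29). Thymidylate synthase, TYMS, had 0.28 and was not called. Of 33 genes of homologous recombination and the Fanconi pathway 3 rose, 0 fell and 32 were positive (median 0.20). EXO1, the nuclease that resects DNA ends, went from 34.9, 36.0 and 37.9 CPM to 44.5, 46.9 and 49.6 CPM (0.37), and BRCA1 from 43.6, 46.2 and 44.4 CPM to 53.9, 60.3 and 54.3 CPM (0.33). AUNIP, a factor of end resection and of the mitotic spindle, had the largest rise outside the locus, from 10.4, 10.9 and 11.7 CPM to 16.9, 15.1 and 14.1 CPM (0.48, SE 0.115, edgeR adjusted p = 0.0389). Its call was lost without control 1 (0.44), control 2 (0.48), OE 1 (0.41), OE 2 (0.50) or OE 3 (0.54). In both lists 0 members passed without control 1, control 2 or OE 3, and without OE 2 the nucleotide list had 1 and the repair list 0. DESeq2 called 6 nucleotide and 3 repair genes higher. Of 7 mismatch repair genes 0 were called, where edgeR called 0.914% of all genes tested, and MSH6 had the smallest p (0.17, adjusted p = 0.134).

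Regulators of the G1 to S transition and of mitosis were counted next. Among 26 tested E2F, RB and cyclin genes 2 rose, 0 fell and 22 were positive (median 0.14). CDC25A, the phosphatase that activates cyclin-dependent kinase at S phase entry, went from 40.5, 40.1 and 44.9 CPM to 54.7, 50.5 and 54.3 CPM (log2 fold change 0.35, edgeR adjusted p = 0.0159), and E2F2, an activating E2F factor, from 43.9, 46.5 and 42.5 CPM to 52.0, 55.5 and 54.9 CPM (0.29, adjusted p = 0.0433). CCNE2 (0.26), E2F1 (0.17) and CCND1 (0.13) were not called. Without control 1, control 2 or OE 3, 0 of these genes passed, and E2F2 lost the call also without OE 2 (0.27) and control 3 (0.26). The list held 1 call lower without OE 1 and 1 without control 3, and DESeq2 called 3 members higher and 1 lower. Among 37 kinetochore and centromere genes 2 rose, 0 fell and 30 were positive (median 0.15). ZWINT, an outer kinetochore protein, went from 84.7, 84.4 and 89.0 CPM to 108, 111 and 107 CPM (0.34, SE 0.0585, adjusted p = 0.00302), and SPC25, of the NDC80 complex, from 28.2, 28.2 and 27.7 CPM to 37.2, 36.1 and 40.3 CPM (0.43). ZWINT was called in all 6 fits that left out a library, and SPC25 in 5, losing the call without OE 3 (0.39). Of 36 genes of mitotic entry and exit, MYBL2, a transcription factor of the late cell cycle, was the single rise (0.26, a call lost without control 1, control 2, OE 1 or OE 3), and 32 were positive with a median of 0.09. MKI67 (0.04), TOP2A (0.05), CCNB1 (0.14) and PLK1 (0.09), which peak in G2 and mitosis, were not called. The 7 lists from licensing to mitosis held 215 tested genes together. In the edgeR fit of all 6 libraries 26 of them rose (12.1%), 0 fell and 197 were positive, with a median of 0.16. PKMYT1, the kinase that holds the mitotic kinase inactive (0.35), and CHEK2, a checkpoint kinase (0.32), rose outside those lists and were named after their values were seen.

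**Figure D3:**
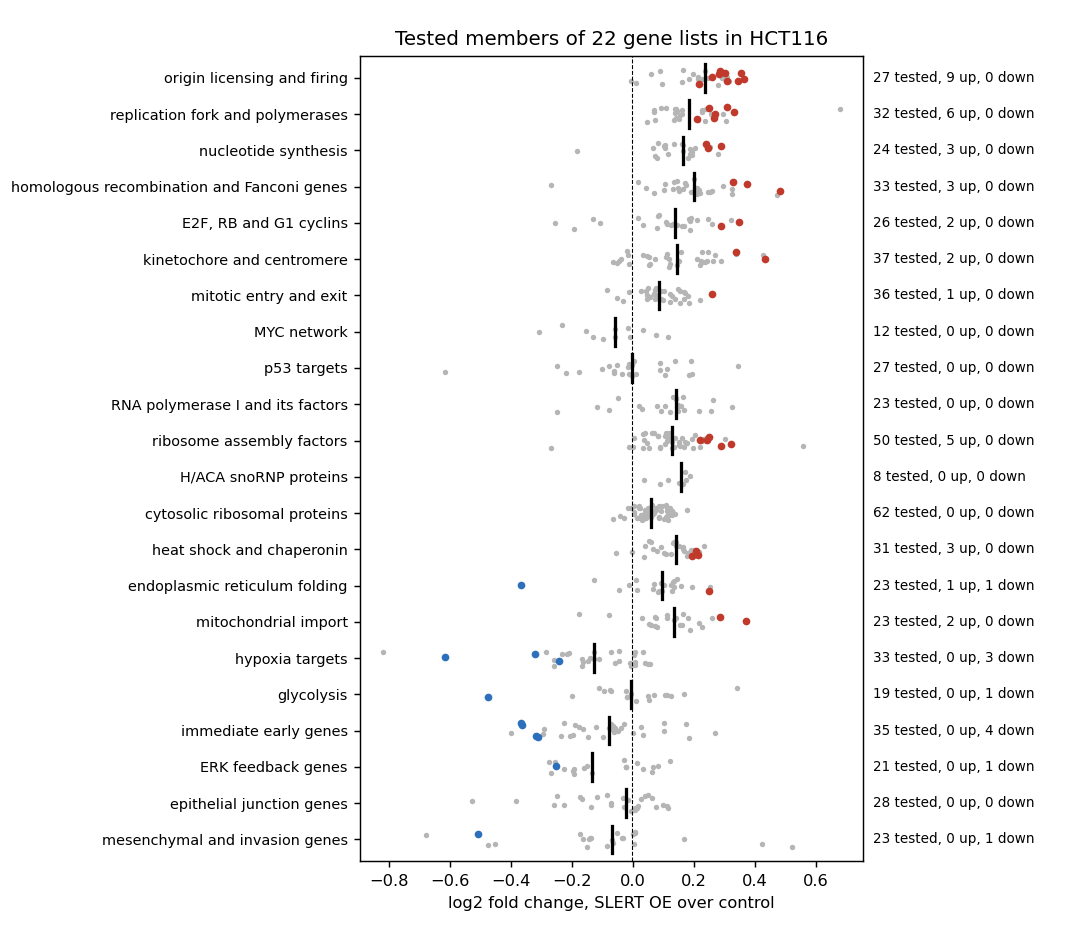
Log2 fold changes of the tested members of 22 gene lists in HCT116, with called rises in red, called falls in blue, genes not called in grey, the list median as a black bar and the median of all genes tested as a dashed line. The medians of the replication and ribosome lists lie to the right of the dashed line and those of hypoxia, ERK feedback and immediate early genes to the left, while most members of every list were not called.

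Other regulators of proliferation held no call, which says little for lists of this size, as edgeR called 0.914% of all genes tested. An unadjusted p under 0.05 was held by 2298 of 15980. Of 12 genes of the MYC network 0 were called (2 at an unadjusted p under 0.05, 1 by DESeq2), MYC itself had a log2 fold change of -0.02, and MXD4, which antagonises MYC, was lower in every OE library (52.6, 45.4 and 49.4 against 42.9, 36.9 and 39.3 CPM, edgeR adjusted p = 0.0524). Of 27 p53 targets 0 were called (7 at an unadjusted p under 0.05, 0 by DESeq2), with a median of -0.003. CDKN1A, the p21 gene, had 0.11, and TP53INP1, with the smallest p of the list, stood at 37.3, 38.5 and 38.4 CPM and at 31.5, 32.6 and 32.0 CPM (-0.25, adjusted p = 0.109). Of 14 replication-independent and linker histones edgeR called 0 (2 at an unadjusted p under 0.05) and DESeq2 2, and H2AX had 0.22 (adjusted p = 0.0914).

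The nucleolar process in which SLERT is known to act was examined next. Of 23 tested genes of RNA polymerase I and its factors 0 were called by edgeR, 19 were positive and the median was 0.14. At an unadjusted p under 0.05 there were 13, against 2298 of 15980 over all genes tested, and DESeq2 called 1. NCL, which encodes nucleolin, had the smallest p, at 1823, 1839 and 1742 CPM and at 2053, 2025 and 1999 CPM (log2 fold change 0.17, adjusted p = 0.0719). DDX21, the helicase bound by SLERT, was at 353, 359.8 and 335 CPM in the controls and at 381, 407 and 369 CPM with OE (0.14, interval 0.03 to 0.25, adjusted p = 0.195). DKC1, the gene of dyskerin, was at 199.8, 186 and 191 CPM and at 209, 215 and 222 CPM (0.16, interval 0.05 to 0.27, adjusted p = 0.134). The arms of these 3 genes did not overlap, yet none of them passed the adjusted threshold. All 8 tested H/ACA proteins were positive and 0 were called (4 at an unadjusted p under 0.05, 1 by DESeq2), led by NOLC1 (0.19, adjusted p = 0.0663). Of 9 C/D proteins RUVBL1, an ATPase of snoRNP assembly, rose (0.21, adjusted p = 0.0461), a call lost in every fit that left out a library, where its log2 fold change was 0.19 to 0.22.

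Factors that assemble the ribosome act downstream of rDNA transcription. Of 50 tested members 5 rose, 0 fell and 48 were positive, with a median of 0.13. NIP7, needed for maturation of the large subunit RNA, went from 53.2, 61.2 and 62.4 CPM to 73.0, 76.7 and 71.5 CPM (log2 fold change 0.32, edgeR adjusted p = 0.0181). MRTO4, which holds the place of the stalk protein on the pre-ribosome, went from 74.8, 79.8 and 78.3 CPM to 91.2, 94.3 and 99.2 CPM (0.29, adjusted p = 0.0167). PES1, of the PeBoW complex (0.24), EBNA1BP2 (0.25) and NOC2L (0.22) rose as well. The arms of all 5 were separate, and DESeq2 called 8 members of the list higher. The 5 became 0 without control 1, control 2 or OE 3, 1 without OE 2, 4 without OE 1 and 5 without control 3. Of 62 cytosolic ribosomal protein genes 0 were called, also at an unadjusted p under 0.05 or by DESeq2, and 57 were positive with a median of 0.06, and 9 were called upward without control 3. Of 19 noncoding snoRNA hosts edgeR called 0 (3 at an unadjusted p under 0.05) and DESeq2 1, and SNHG7 had 0.30 (adjusted p = 0.0558). Over all genes tested edgeR called 0.914%, and 2298 of 15980 had an unadjusted p under 0.05.

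Chaperones and organelle genes added further small rises. Of 31 heat shock and chaperonin genes 3 rose, 0 fell and 29 were positive (median 0.14), whereas DESeq2 called 15 higher. HSPA8, the constitutive cytosolic chaperone, was at 1472, 1434 and 1453 CPM and at 1623, 1661 and 1700.4 CPM (log2 fold change 0.19), HSPD1, the mitochondrial chaperonin, had 0.21, and FKBP4, a co-chaperone of steroid receptors, had 0.21. The inducible genes HSPA1A (0.05) and DNAJB1 (0.08) were not called. None of the list passed without control 1, control 2, OE 2 or OE 3, and 5 passed without control 3. Of 23 genes of mitochondrial import 2 rose and 21 were positive (median 0.13). These were TOMM40, the pore of the outer membrane (166, 166 and 157 to 207, 185 and 204 CPM, 0.28, edgeR adjusted p = 0.0111, lost without control 2 or OE 3), and TIMM13, a carrier chaperone (45.2, 49.5 and 55.5 to 60.1, 59.4 and 74.6 CPM, 0.37). TIMM13 had 0.26 without OE 3, its highest library, and lost the call there and without control 1, control 2 or OE 2. Among 15 RNAs encoded in mitochondrial DNA the small ribosomal RNA MT-RNR1 alone rose, from 1184, 1119 and 1208 CPM to 1376, 1502 and 1467 CPM (0.31, SE 0.0501, adjusted p = 0.00185), a call held without each library. MT-RNR2, the large ribosomal RNA of the same precursor, had 0.04. TBRG4, as a FASTK protein, acts on mitochondrial RNA, and of its 5 tested relatives, from FASTKD1 (-0.04) to FASTKD2 (0.15), 0 were called.

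The endoplasmic reticulum and amino acid lists each gave a call in either direction. CALR, the lectin chaperone calreticulin, rose from 749, 715 and 730.3 CPM to 867, 855 and 886 CPM (log2 fold change 0.25, edgeR adjusted p = 0.00997), and EDEM1, of the disposal of misfolded glycoproteins, fell from 41.9, 43.6 and 44.8 CPM to 34.0, 35.3 and 31.6 CPM (-0.37, adjusted p = 0.0149). Both calls were lost without control 2 (0.23 and -0.37) or OE 3 (0.24 and -0.32). PSAT1, an enzyme of serine synthesis, rose (0.25), and SLC38A2, an amino acid transporter, fell (-0.21). PSAT1 lost its call without control 1, control 2, OE 2 or OE 3, and SLC38A2 without any library but control 3. Among 24 ferroptosis and NRF2 genes AIFM2 (0.40) and KEAP1, the adaptor that marks NRF2 for degradation (0.26), rose. AIFM2 was at 35.5, 36.7 and 39.7 CPM and at 50.4, 48.9 and 47.8 CPM, with the call lost without control 1 (0.36), and KEAP1 lost its call in every fit without a library. MT1E was the single rise of 7 metallothionein and zinc genes (29.4, 27.1 and 34.4 to 35.8, 38.9 and 47.7 CPM, 0.43). It lost the call without control 1, control 2, OE 2 or OE 3, and had 0.31 without OE 3, and its reads may be shared with close copies.

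**Figure D4:**
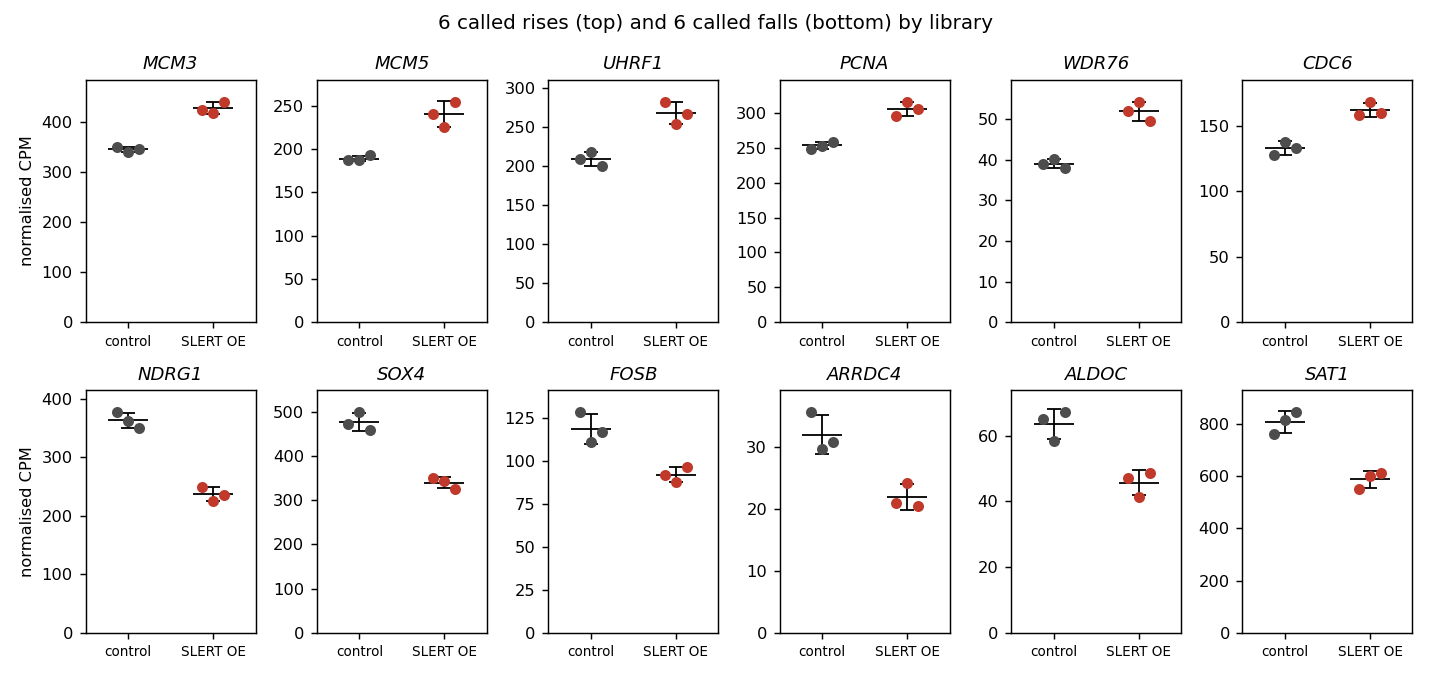
Normalised CPM of 6 called rises (upper row) and 6 called falls (lower row) in each of the 3 control (grey) and 3 OE (red) libraries of HCT116, with the mean and SD of each arm, on linear axes that start at 0. The arms of every gene are apart, and the differences are small beside the level of the gene.

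Falls were led in strength of evidence by NDRG1, a gene of the hypoxia response known as a metastasis suppressor. It was at 376, 362 and 350.4 CPM in the controls and at 249, 225 and 235 CPM with OE, so the highest OE library stood far below the lowest control. It fell by 0.62 on the log2 scale (SE 0.0543, edgeR adjusted p = 5.24e-08) and was called without each library. The hypoxia response is driven by HIF factors when prolyl hydroxylases lack oxygen. Of 33 tested hypoxia targets 3 fell, 0 rose and 8 were positive, with a median of -0.13. P4HA1, a collagen prolyl hydroxylase, went from 60.9, 62.8 and 62.2 CPM to 47.9, 52.2 and 48.6 CPM (-0.32, adjusted p = 0.0159), and KDM3A, a histone demethylase, from 109.9, 116 and 109 CPM to 96.4, 93.4 and 93.0 CPM (-0.24, adjusted p = 0.0389). In this list 12 members were lower with arms that did not overlap, against 1531 of 15980 over all genes tested. An unadjusted p under 0.05 was held by 13, against 2298 of 15980, and DESeq2 called 5 lower. Other well known targets were not called, with VEGFA at -0.15, SLC2A1 at -0.01 and EGLN3 at -0.01, and CA9 was under 1 CPM in every library. The 3 falls became 1 without control 1, control 2 or OE 3, 2 without OE 1 or OE 2 and 5 without control 3. In glycolysis ALDOC, an aldolase, was the single call of 19 (64.9, 58.3 and 67.0 to 47.2, 41.3 and 48.5 CPM, -0.47, adjusted p = 0.00151), held without each library. LDHA (-0.01), GAPDH (-0.02) and PKM (0.05) of the same pathway were not called.

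ARRDC4, an alpha-arrestin controlled by the glucose sensor MondoA, fell from 35.7, 29.7 and 30.9 CPM to 21.1, 24.3 and 20.5 CPM (-0.55 on the log2 scale, SE 0.0934, edgeR adjusted p = 0.00302) and kept its call without each library. It was the only call among 7 tested genes of its list. ARRDC3 had -0.15. TXNIP, the other main target of MondoA, had 0 counts in all 6 libraries and could not be compared. TOMM6, of the mitochondrial import list, also had 0 counts in all 6. The counter and annotation release are not given, so here and in the other lists a count of 0 does not show that an RNA is absent.

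Immediate early genes, which respond within minutes to growth factors and stress, had 4 falls among 35 tested, 0 rises and 8 positive members, with a median of -0.08. FOSB, an AP-1 subunit, went from 128, 111 and 117 CPM to 91.8, 87.9 and 96.4 CPM (-0.37 on the log2 scale, SE 0.0632, edgeR adjusted p = 0.00302). NR4A1, an orphan nuclear receptor, went from 174, 144 and 149.6 CPM to 123, 118 and 134 CPM (-0.32), and its relative NR4A2 from 42.6, 34.5 and 35.5 CPM to 31.3, 28.4 and 27.7 CPM (-0.37). ZFP36L1, which binds AU-rich messages and promotes their decay, went from 372, 326 and 343 CPM to 293, 269 and 276 CPM (-0.31). Control 1 was the highest library for each of these 4 genes. Without it 0 members of the list passed, and the log2 fold changes were -0.31 for FOSB, -0.23 for NR4A1, -0.26 for NR4A2 and -0.26 for ZFP36L1. The count was 3 without control 2 or OE 3, 4 without control 3, 5 without OE 1 and 1 without OE 2. FOS (-0.23), EGR1 (-0.18) and JUN (-0.04) were not called. Of 21 ERK feedback genes DUSP5, a nuclear ERK phosphatase, fell (184, 172 and 169 to 154, 132 and 154 CPM, -0.25, adjusted p = 0.0407), and 6 were positive with a median of -0.13. That call was lost without control 1, control 2, OE 2 or OE 3, and DUSP5 had -0.18 without OE 2, its lowest library.

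Genes of cell identity, adhesion and signalling gave single falls. SOX4, a transcription factor of progenitor and cancer cells at chr6:21592768-21598619, went from 473, 498 and 459 CPM to 349.8, 343 and 325 CPM (-0.49 on the log2 scale, SE 0.0527, edgeR adjusted p = 2.15e-06), with a wide gap between the arms and a call without each library. TNXB, the matrix protein tenascin-X, was at 28.2 to 28.9 CPM in the controls and had its highest OE library below them (-0.51, adjusted p = 0.00302), and was the only call of 23 mesenchymal and invasion genes. BMP4, a growth factor of the TGF-beta family, fell from 382, 378 and 371 CPM to 321, 300.2 and 329.5 CPM (-0.25, adjusted p = 0.0157), a call lost without control 1 (-0.24), control 2 (-0.25) or OE 2 (-0.21). It stands in both the Wnt and the TGF-beta list. MUC12, a membrane mucin, was highest in control 1 at 13.6 CPM and reached at most 7.19 CPM with OE (-0.74, adjusted p = 0.0158), and lost the call without control 1 (-0.55), OE 2 (-0.81) or OE 3 (-0.63). Of 28 epithelial junction genes, 22 integrins and laminins, 19 YAP targets, 22 interferon-stimulated genes, 13 MHC class I genes, 15 NF-kB targets, 26 cholesterol genes and 13 fatty acid genes 0 were called. At an unadjusted p under 0.05 these lists held 6, 7, 3, 2, 0, 1, 5 and 2 genes in that order. Over all genes tested 2298 of 15980 reached that level and edgeR called 0.914%. DESeq2 called 1 member, in the integrin and laminin list. In the junction list CGN, which encodes cingulin, had -0.25 (adjusted p = 0.0702), and in the laminin list LAMB2 had -0.22 (adjusted p = 0.0522). In the YAP, interferon, MHC class I, NF-kB and fatty acid lists the members of smallest p were NT5E (0.23), STAT2 (-0.24), TAPBP (-0.15), NFKBIE (0.25) and ACSS2 (-0.17).

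The remaining large falls by the naming rule were genes of low level. RCAN2, a regulator of calcineurin, went from 7.69, 7.09 and 9.43 CPM to 4.48, 4.33 and 5.24 CPM (log2 fold change -0.78, edgeR adjusted p = 0.0153). NFATC4, a transcription factor that calcineurin activates, went from 12.3, 12.2 and 12.3 CPM to 7.86, 6.09 and 9.09 CPM (-0.68, adjusted p = 0.0122). RCAN2 lost the call without control 1 (-0.82) or OE 2 (-0.73), and NFATC4 without control 1 (-0.68), control 2 (-0.68) or OE 2 (-0.53). LRRC37B, KRBOX5, ACAP1, KANSL1L and ZNF608 had log2 fold changes from -0.62 to -0.50, and each lost its call without at least 1 library. TTLL3, a tubulin glycylase (-0.49), and FER1L4, a transcribed pseudogene (-0.50), were called without each library. MIR23AHG, the host transcript of the miR-23a cluster, had -0.49 and lost its call without control 1 (-0.46), control 3 (-0.43), OE 1 (-0.45), OE 2 (-0.48) or OE 3 (-0.53). It is annotated as an antisense gene, and without a stated use of strand its reads cannot be told apart from those of its partner.

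**Figure D5:**
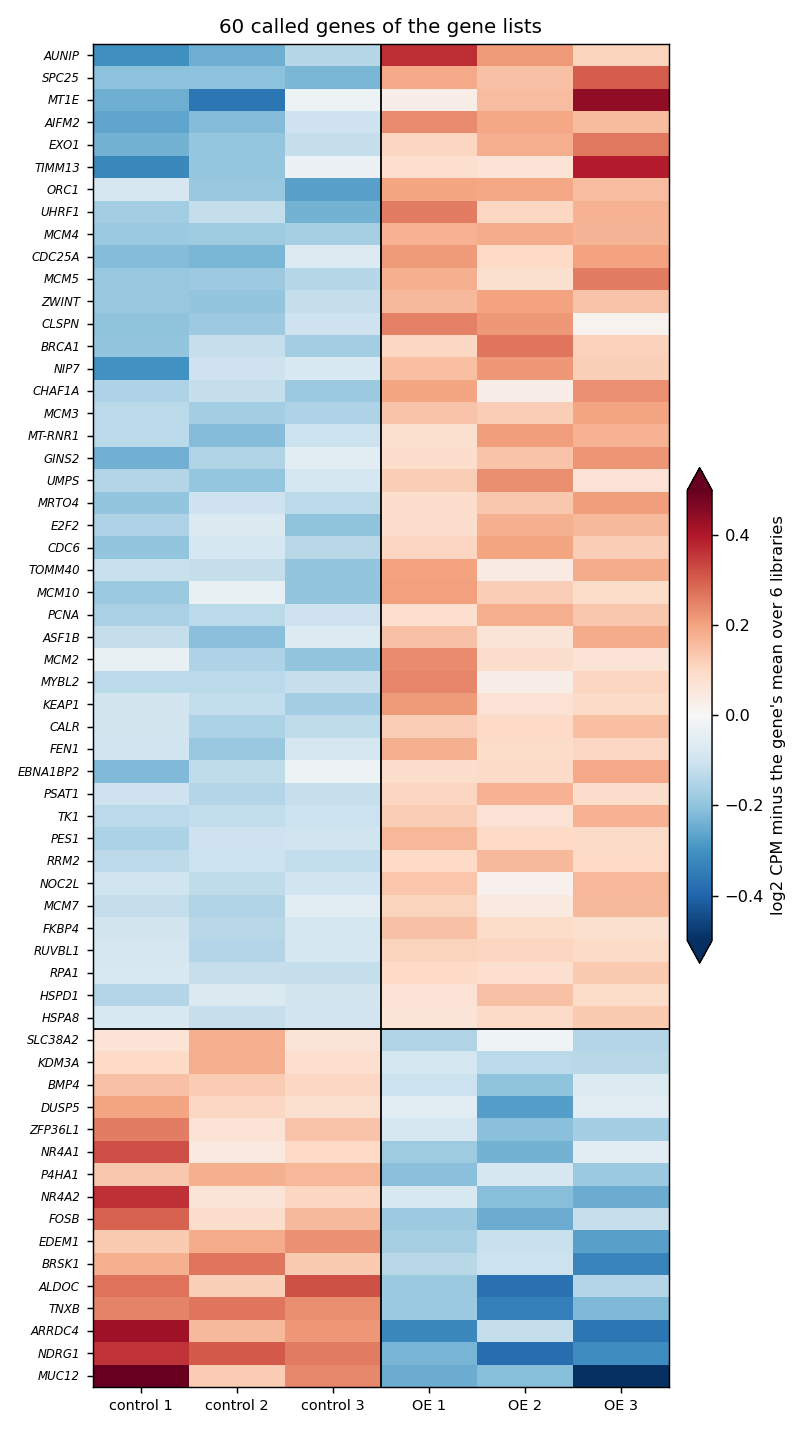
Log2 CPM minus the mean over the 6 libraries for the 60 called genes of the gene lists outside the SLERT locus, with genes in rows ordered by fold change, libraries in columns and a colour scale capped at 0.5 in either direction. No OE value of a gene lies within the range of its control values, and single libraries such as OE 3 for MT1E or control 1 for MUC12 carry the strongest colours.

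Neither gene of the series title was called. HUNK, an AMPK-related kinase on chromosome 21, had 7, 2 and 2 counts in the controls and 0 in each OE library, and the filter kept it out of the fit. An exact two-sided permutation of the CPM values returned p = 0.1, which is the minimum for 3 libraries against 3, and edgeR without a filter gave an adjusted p of 0.269. RBM15, of the m6A methyltransferase complex, was at 50.6, 54.7 and 58.0 CPM and at 53.6, 55.6 and 45.0 CPM, with overlapping arms (log2 fold change -0.08, interval -0.24 to 0.08, adjusted p = 0.695). Of 23 tested genes that write, erase or read m6A 0 were called (2 at an unadjusted p under 0.05, 0 by DESeq2). Over all genes tested edgeR called 0.914%, and 2298 of 15980 had an unadjusted p under 0.05. IGF2BP3, a reader, had -0.16 with arms that did not overlap (adjusted p = 0.134). Of 16 AMPK-related kinases BRSK1, known from neurons, was the single fall (28.1, 30.0 and 27.2 to 22.5, 23.0 and 19.6 CPM, -0.39, adjusted p = 0.0312), and it lost the call without control 1 (-0.40), control 2 (-0.35), OE 2 (-0.43) or OE 3 (-0.32).

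Rises and falls differed in the kind of gene they held. The median level was 103 CPM for rises, 43.5 CPM for falls and 19.9 CPM for all genes tested, and the median length was 4021 bases for rises, 6934 for falls and 4895 for all. The median GC content was 52.2%, 51.4% and 48.9% in the same order. Library composition moved with the arms among the shortest genes. In the shortest length class (of 5 equal classes) of 8699 genes with a log2 CPM above 4, the median deviation from the mean over the libraries was -0.062, -0.061 and 0.008 on the log2 scale in the controls and 0.015, 0.026 and 0.073 with OE, so the arms did not overlap there. In the longest class it was 0.023, 0.024 and -0.019 in the controls and 0.003, 0.012 and -0.043 with OE, and the arms overlapped. With a correction for length within each library 205 genes were called, 136 of them among the 146. By library, the median log2 shift of the called rises outside the locus from the control mean was -0.03, -0.004 and 0.02 in the controls and 0.26, 0.28 and 0.28 with OE, and that of the falls was 0.005, -0.002 and -0.03 and then -0.35, -0.39 and -0.39. These genes were called because the arms differ, so the shifts are a description.

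The number of calls depended on which library was left out. Without control 1 the count was 37, without control 2 it was 38, without OE 2 43 and without OE 3 37, whereas it was 287 without control 3 and 175 without OE 1. Of the 146 genes, 22 were called in each of these 6 fits, 11 rises and 11 falls. The rises were SNORA5A, SNORA5C, TBRG4, MCM3, MCM4, MCM5, UHRF1, WDR76, ZWINT, PKMYT1 and MT-RNR1. The falls were NDRG1, SOX4, ALDOC, ARRDC4, TNXB, TTLL3, FER1L4, SAT1, LRP1, AHNAK2 and KDM5B.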

How the data were processed

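Whole-gene RNA-seq counts of 6 HCT116 libraries were used, 3 control and 3 OE. Per the labels' protocols, total RNA was extracted with Trizol and libraries were made with a TruSeq kit. HISAT2 2.1.0 and GRCh38 are named in the submitters' processing notes. Not given in the sources used here are the counter, the annotation release and whether strand was used. The raw counts were used as deposited, and the FPKM values of the authors' deposited table served for levels per length and for alternatives. The 6 other count columns of the table were not used.

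Genes were kept by filterByExpr in edgeR 4.0.16 (R 4.3.3), which held at least 99.8% of each library's counts, and TMM factors were applied. Arms were compared with edgeR's quasi-likelihood test and Benjamini-Hochberg adjustment over the 15980 genes, at a threshold of 0.05. The common biological coefficient of variation was 6.00%. Printed CPM use TMM-scaled totals. The code was tested on simulated data. No libraries were duplicates by a chi-square comparison of their counts.

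The members and the gene lists were chosen with earlier results of these data known. The rule for naming took the members of the locus, neighbour and partner lists, the 15 largest rises and falls past the threshold with an average log2 CPM of at least 1 and up to 5 called members of each list, or the member of smallest p. Other genes named were chosen after their values were seen. Alternatives were DESeq2 1.42.0, limma 3.58.1 (voom, and log2 of FPKM plus a pseudocount of 1 or 0.1 with a mean FPKM of at least 0.1), other scalings and filters, a replicate block and each library left out. Corrections for gene length and GC content were added after seeing the data. Promoter sequences are from RefSeq (GRCh38.p14) and snoRNA sequences from GENCODE transcripts on GRCh38.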

Additional observations from a re-analysis of the deposited data

How the results depend on the processing

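The count of called genes was 141 to 163 with RLE factors, upper quartile factors, a filter at 1 CPM and limma voom. It was 256 (160 higher) without a filter, 281 (196 higher, 69.8%) by DESeq2, which gave SNORA5C and SNORA5A no p, and 439 (269 higher, 170 lower) with the GC content correction added after seeing the data. On log2(FPKM + 1) limma called 3 genes, 2 higher and 1 lower, and on log2(FPKM + 0.1) 5, 2 higher and 3 lower. TBRG4 was not past the threshold there, with 0.62 (adjusted p = 0.0762) and 0.63 (adjusted p = 0.0637). The cause was not tested. Leaving out 1 library gave 37 to 287 calls, 16 to 191 higher and 19 to 96 lower.

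With the replicate block 1322 genes were called, 817 higher and 505 lower, all 146 among them. Same-numbered libraries correlated at 0.0473, 0.0337 and 0.0462 in their deviations, and each library correlated best with its own number. In the class of lowest GC content the median deviation was -0.043, 0.053 and -0.030 in the controls, in number order. With OE it was -0.019, 0.081 and -0.040. In the class of highest GC content it was 0.032, -0.012 and -0.013 in the controls and 0.064, -0.072 and 0.016 with OE. In each class the highest library had the same number in both arms, and the lowest did not. Whether same-numbered libraries share a batch was not tested.

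Among the 114 tested genes of the rule for naming, direction changed only for some that were not called. The direction of other genes named here was not followed over the alternatives. On log2(FPKM + 1), log2(FPKM + 0.1) and with the length correction EPCAM had -0.0082, -0.0084 and -0.019. OGDH had -0.0035 and -0.0036 on the FPKM scales, and NUDCD3 had 0.0059 with the length correction. Over the fits that left out 1 library the log2 fold change ran from -0.13 to 0.029 for CDX2, -0.033 to 0.066 for EPCAM, -0.051 to 0.015 for KRT19, -0.14 to 0.34 for NPC1L1, -0.064 to 0.0045 for NUDCD3, -0.0079 to 0.048 for OGDH, -0.039 to 0.092 for PURB and -0.14 to 0.0052 for RBM15. Depth limits genes such as HUNK, whose counts lie near the floor of 3.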

Other observations

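The genes described here lie outside the lists, were chosen singly after their values were seen and stand for no group. ODC1, the enzyme that makes putrescine, rose from 375, 388 and 399 CPM to 446, 469 and 467 CPM (log2 fold change 0.25, edgeR adjusted p = 0.0122). SAT1, which acetylates polyamines for export and breakdown, fell from 759, 815 and 844 CPM to 549, 599.6 and 613 CPM (-0.46, adjusted p = 1.33e-05). EIF5A, the translation factor that carries the polyamine-derived residue hypusine, rose from 506, 509 and 518 CPM to 588, 590.5 and 641 CPM (0.25, adjusted p = 0.0143). The arms of all 3 genes were separate. SAT1 was called without each of the 6 libraries, whereas ODC1 lost its call without control 1, control 2, OE 2 or OE 3 and EIF5A without control 1, control 2 or OE 3.

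PSMD6 (0.31) and PSMD14 (0.23), which encode proteasome subunits, and PSME3 (0.24), which encodes a proteasome activator, also rose, each called only without control 3 or OE 1 among the fits that left out a library. LRP1, an endocytic receptor, fell from 51.8, 51.4 and 47.7 CPM to 39.0, 35.8 and 37.1 CPM (-0.43, adjusted p = 0.00285). AHNAK2, a large scaffold protein, fell from 189.7, 193 and 185 CPM to 150.5, 138 and 135 CPM (-0.42, adjusted p = 1.22e-04). KDM5B, a histone H3 demethylase, fell from 98.7, 102 and 97.2 CPM to 79.5, 79.8 and 76.3 CPM (-0.34, adjusted p = 0.00377). These 3 falls were called without each library.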
